A study of Mus musculus with 18 samples.

Results

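The blood vessels of the dorsal root ganglion (DRG) were followed through 10 marker genes, 6 of endothelial cells (Pecam1, Cdh5, Kdr, Flt1, Tek and Cldn5) and 4 of the mural cells, pericytes and smooth muscle, that wrap the vessel wall (Pdgfrb, Rgs5, Acta2 and Cspg4). All probe sets that the array annotation assigns to these genes were taken, which gave 21 of the 45037 probe sets other than controls, 10 endothelial and 11 mural. Flt1 and Rgs5 had 4 probe sets each, Acta2 had 3, Cdh5, Pdgfrb and Cspg4 had 2 each, and Pecam1, Kdr, Tek and Cldn5 had 1 each.

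The study asked how gene expression in DRG differs after loss of a sensory neuron sodium channel, Nav1.7, Nav1.8 or Nav1.9. There were 3 KO and 3 littermate samples in each of 3 mouse lines, 18 samples in 6 groups, each hybridised to its own Affymetrix mouse genome array. Nav1.7 KO mice carry a floxed Scn9a gene removed from sensory neurons by Cre recombinase driven from the Advillin gene, so Cre and a lower Advillin signal come together with the loss of Nav1.7 in that line. The other lines are global nulls, of Scn10a in Nav1.8 KO and of Scn11a in Nav1.9 KO. The littermates are labelled wild type, and ganglia from all spinal levels were used whole, with their vessels, glia and connective tissue. The paper used adult mice of both sexes, but the sexes were not balanced across these arrays. Whether each array held RNA of 1 animal or of several is not stated, so p-values measure only the spread between these samples.

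Endothelial cells line every vessel and are sealed to each other by junction proteins. Pericytes sit on capillaries and smooth muscle cells on larger vessels, and both are recruited by growth factors that the endothelium releases. In the DRG the capillaries around the neuronal cell bodies are more permeable than those of the brain or of the nerve trunk.

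Array medians lay between 6.33 and 6.36 on the log2 scale, and the correlation across probe sets between replicates was 0.996 to 0.998. Sensory neuron markers were bright in all groups, with array means over 10 genes between 12.6 and 12.9. Scn10a fell by 1.57 on the log2 scale in Nav1.8 KO DRG and Scn11a fell by 1.85 in Nav1.9 KO DRG (limma adjusted p = 8.61e-05 and 9.62e-07). Scn9a did not pass in Nav1.7 KO DRG (log2 fold change -0.06, adjusted p = 0.706), whether its probes lie in the deleted part is not known, and Avil fell by 0.64 (adjusted p = 3.58e-07). By the X-inactivation RNA Xist the arrays formed 2 classes. The Y-linked gene Eif2s3y ran the opposite way, with means of 4.39 in Nav1.7 littermates, 9.37 in Nav1.8 littermates and 9.33 in Nav1.9 littermates. The high Xist class was thus read as female and the low class as male. Of the 6 groups 4 lay in 1 class, and Nav1.7 KO and Nav1.8 KO held both: Xist was high in Nav1.7 KO replicates 1 and 3, all 3 Nav1.7 littermates and Nav1.8 KO replicates 2 and 3, and low in the other 11 arrays.

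Promoters are shown for Rgs5 and Cldn5, the members on which the results below turn, as the 250 bases before the gene start in RefSeq on GRCm38.p6. Of the 10 genes, 7 were matched in the RefSeq promoter table. Capitals mark the CCAAT box, CCAAT or its reverse complement ATTGG, searched on both strands, which occurs in 33.8% of 32851 promoter windows of the same length. The Rgs5 window lies at chr1:169655251-169655500 on the plus strand and the Cldn5 window at chr16:18776597-18776846 on the plus strand.
Rgs5: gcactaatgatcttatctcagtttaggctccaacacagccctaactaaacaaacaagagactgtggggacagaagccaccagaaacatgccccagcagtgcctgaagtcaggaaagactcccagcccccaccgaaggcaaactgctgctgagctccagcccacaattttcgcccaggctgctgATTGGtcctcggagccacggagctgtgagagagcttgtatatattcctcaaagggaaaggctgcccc
Cldn5: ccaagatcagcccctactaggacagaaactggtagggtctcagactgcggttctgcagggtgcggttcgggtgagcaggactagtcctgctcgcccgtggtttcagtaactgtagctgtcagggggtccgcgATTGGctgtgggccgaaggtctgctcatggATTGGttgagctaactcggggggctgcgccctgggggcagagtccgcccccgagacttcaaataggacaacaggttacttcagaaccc
Rgs5 held 1 such match and Cldn5 held 2. The D-box TTATGTAA (0.819% of windows), the E-box CACGTG (6.02%) and the ETS core AGGAAG (29.5%) had 0 matches in both windows, as had the CArG box of smooth muscle genes (1.47%). These are matches of letters and no evidence of binding.

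The values are log2 intensities, so a difference of 1 is a doubling, and levels of different probe sets cannot be set against each other because each has its own probes. Place in the brightness order of the array is given only to show which probe sets carry signal. The brightest probe sets of Rgs5, Pdgfrb and Acta2 were at the 96.6th, 88.2nd and 86.4th percentile of all probe sets by their mean over 18 arrays. Those of Cldn5, Flt1, Kdr, Cspg4, Cdh5 and Tek were between the 60.7th and the 71.8th. Pecam1, which encodes an adhesion molecule of endothelial junctions, had 1 probe set at the 28.3rd percentile, and Acta2 1444105_at and 1456658_at lay at the 11.6th and 10.4th. No detection calls were used, so whether the dim probe sets measured their transcript is not known.

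Loss of Nav1.7 went with lower Rgs5, a regulator of G-protein signalling that is abundant in pericytes, and with little movement of the other vessel markers. Of the 21 probe sets 1 passed as lower, Rgs5 1420941_at, and 0 passed as higher in limma (adjusted p under 0.05 over 45037 probe sets), beside 1.48% and 0.79% of all probe sets. At an unadjusted p under 0.05, 5 members were lower and 3 higher, beside 7.27% and 6.14% of all probe sets. Without overlap between groups, 2 members were higher and 3 lower, beside 8.29% and 9.74%. The 5 lower at an unadjusted p were the 4 Rgs5 probe sets and the dim Flt1 1454037_a_at. In bulk ganglia, fewer cells of a type and less RNA per cell cannot be told apart.

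Rgs5 1420941_at was at 8.36, 8.04 and 8.83 in Nav1.7 KO DRG and at 9.02, 9.19 and 9.70 in littermates. The groups did not overlap, and KO replicate 2 was the lowest array of the 18. The log2 fold change was -0.89 (95% interval -1.36 to -0.42, limma adjusted p = 0.0457, n = 3 per group). The call was narrow: it was lost without KO replicate 1 (adjusted p = 0.133), KO replicate 2 (0.19), littermate replicate 2 (0.0889) or littermate replicate 3 (0.19), with the Nav1.7 line fitted alone (0.191) and with the Xist class as a term (0.11).

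Rgs5 1417466_at, the brightest, was at 10.09, 10.41 and 11.31 in Nav1.7 KO DRG and at 11.20, 11.18 and 11.76 in littermates (log2 fold change -0.78, adjusted p = 0.0709). Here KO replicate 3 lay above 2 of the 3 littermates. Rgs5 1420940_x_at was at 6.03, 7.01 and 8.24 in Nav1.7 KO DRG and at 8.18, 8.11 and 9.02 in littermates, with the widest spread among the KO arrays of the 4 Rgs5 probe sets (log2 fold change -1.34, 95% interval -2.12 to -0.57, adjusted p = 0.072). Rgs5 1420942_s_at was at 6.65, 7.03 and 7.89 in Nav1.7 KO DRG and at 8.08, 7.95 and 8.35 in littermates, without overlap (log2 fold change -0.93, adjusted p = 0.0847). In each of the 4 probe sets KO replicate 3 was the highest of the KO arrays and littermate replicate 3 the highest of the littermates. The suffixes _x_at and _s_at mark probe sets that can also bind other transcripts.

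Averaged over its 4 probe sets, a summary added after the data were seen, Rgs5 was lower by 1.98-fold after loss of Nav1.7 (log2 fold change -0.99, standard error 0.237, limma adjusted p = 0.0391). This adjusted p takes no account of that choice, so it does not make the fall firmer than the single probe sets do. Without KO replicate 3 all 4 passed, with log2 fold changes from -1.91 to -1.10 and limma adjusted p from 0.000237 to 0.015. That array was the highest KO array in all 4, so leaving it out had to enlarge the fall, and these passes add no support. Over all probe sets 1127 passed in that fit, against 1021 with all arrays. At an unadjusted p under 0.01 and a fold over 1.5, the thresholds of the study as read here, 4 of the 21 members were lower, beside 0.366% of all probe sets. All 4 are probe sets of Rgs5, repeated readings of the same gene and not independent members.

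**Figure D1:**
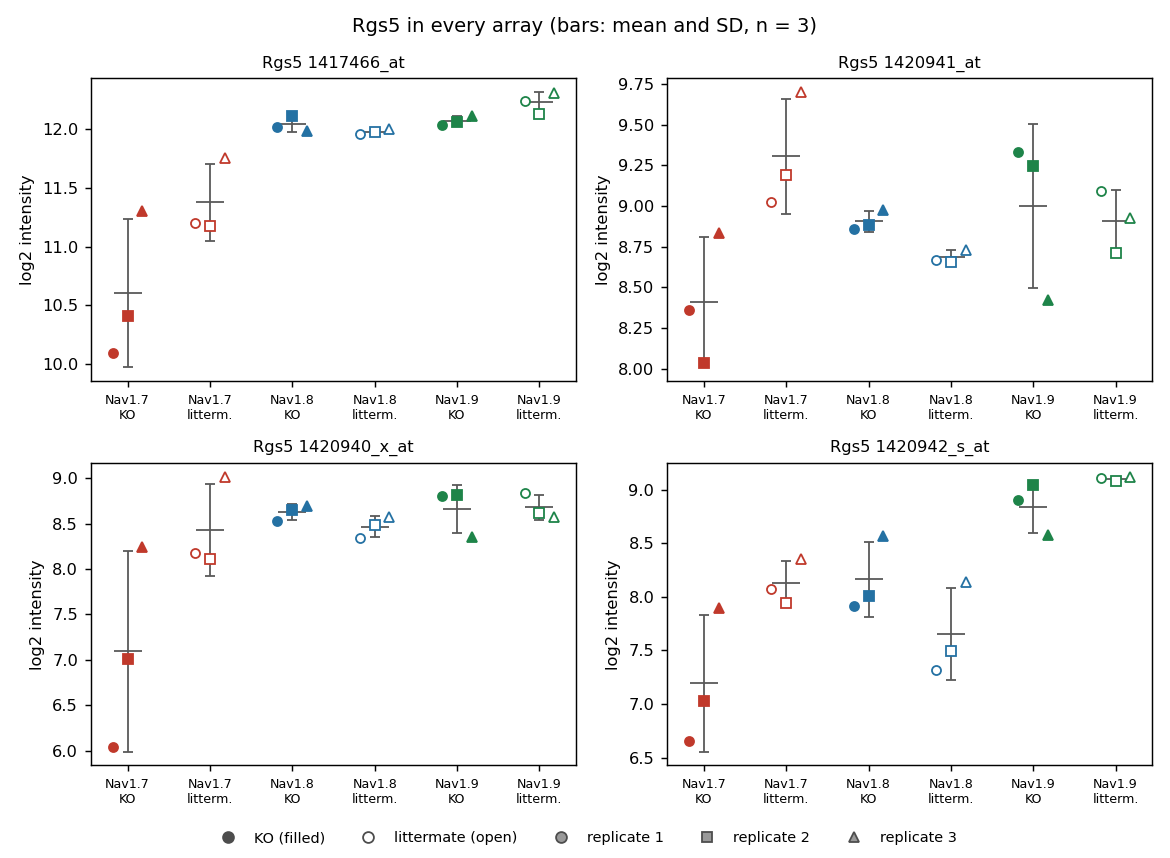
Log2 intensity of the 4 Rgs5 probe sets in each of the 18 arrays, by group, with filled symbols for KO and open symbols for littermates, and the group mean and SD (n = 3) as bars. Nav1.7 KO replicates 1 and 2 were the lowest of the 18 arrays in all 4 panels, at 8.36 and 8.04 for 1420941_at.

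In the other lines Rgs5 did not pass. Its log2 fold changes were 0.06 to 0.51 in Nav1.8 KO DRG and -0.26 to 0.09 in Nav1.9 KO DRG (unadjusted p at least 0.0716). The KO effect of Nav1.7 minus that of Nav1.8 was -0.84, -1.11, -1.50 and -1.44 for 1417466_at, 1420941_at, 1420940_x_at and 1420942_s_at, with adjusted p from 0.0821 to 0.23, so a difference between lines did not pass either, and 0 of the 21 members did, beside 1.09% of all probe sets. Without Nav1.7 KO replicate 3, 4 members passed in this test, and without Nav1.8 littermate replicate 3, 1 did. With all arrays 4 members were lower at an unadjusted p under 0.05, all of them probe sets of the same gene, Rgs5, beside 6.31% of all probe sets. For the KO effect of Nav1.7 minus that of Nav1.9, 0 passed, beside 1.63%, and 2 passed without Nav1.7 KO replicate 3 and 1 without Nav1.9 KO replicate 3.

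The mural receptor Pdgfrb, through which pericytes receive platelet-derived growth factor, had values near those of littermates. Pdgfrb 1436970_a_at was at 10.09, 9.85 and 10.13 in Nav1.7 KO DRG and at 9.95, 9.74 and 9.83 in littermates (log2 fold change 0.18, unadjusted p = 0.0279, adjusted p = 0.292). Acta2, the smooth muscle actin, read by 1416454_s_at, was at 9.73, 9.12 and 9.89 in Nav1.7 KO DRG, against 9.62, 9.04 and 9.54 in Nav1.7 littermates (log2 fold change 0.18, adjusted p = 0.721). Replicate 2 was the lowest array of its group for Acta2 in both. Cspg4, the NG2 proteoglycan of pericytes, had log2 fold changes of -0.02 and -0.03 in its 2 probe sets, with 95% intervals of -0.27 to 0.22 and -0.25 to 0.19.

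Among 20 other pericyte and smooth muscle genes 0 passed in Nav1.7 KO DRG (3 at an unadjusted p under 0.05, 1 higher and 2 lower), with a median log2 fold change of 0.04, beside 0.00 over all probe sets. Mcam, an adhesion molecule of mural and endothelial cells, was nearest to the threshold, at 9.70, 9.73 and 9.84 in Nav1.7 KO DRG and at 9.86, 10.17 and 10.09 in littermates (log2 fold change -0.28, adjusted p = 0.0813). Abcc9, a subunit of a pericyte potassium channel that was named after its value was seen, had a log2 fold change of -0.06 (adjusted p = 0.901). Read by the brightest probe set of each gene, Rgs5 included, 0 of the 4 mural members and 0 of these 20 genes passed.

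**Figure D2:**
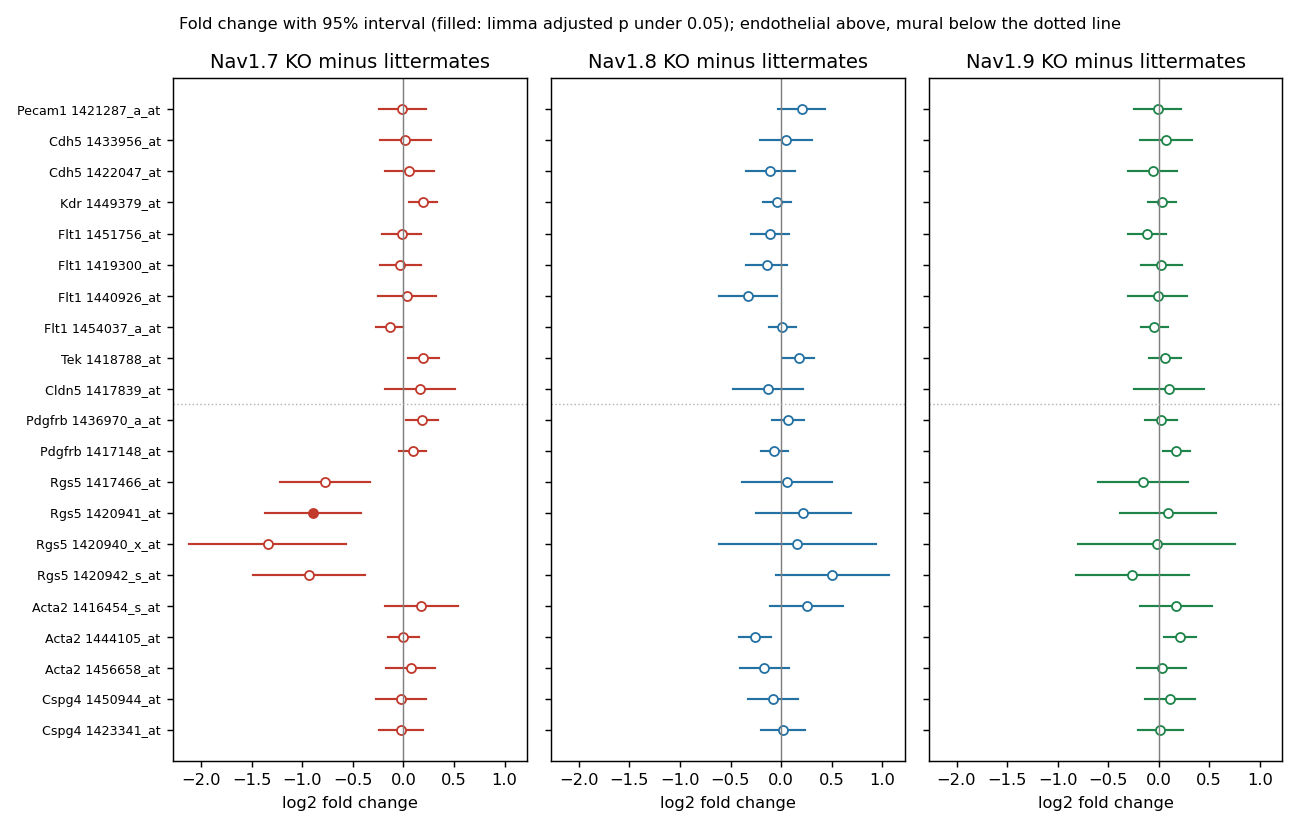
Log2 fold change of KO over littermates with its 95% interval for the 21 probe sets in the 3 lines, endothelial above and mural below the dotted line, filled where the limma adjusted p was under 0.05. The 4 Rgs5 probe sets in Nav1.7 KO lie from -1.34 to -0.78, and 1 point is filled.

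The endothelial receptors for vascular endothelial growth factor and angiopoietin were close to littermate levels in Nav1.7 KO DRG. Kdr, the main signalling receptor for vascular endothelial growth factor, was at 7.77, 7.56 and 7.63 in KO and at 7.50, 7.51 and 7.37 in littermates. The groups did not overlap, as for 8.29% of all probe sets in that direction, and the difference did not pass (log2 fold change 0.19, unadjusted p = 0.00991, adjusted p = 0.177). Tek, the angiopoietin receptor, was at 7.31, 7.01 and 7.19 in Nav1.7 KO and at 7.02, 6.85 and 7.05 in littermates (log2 fold change 0.20, adjusted p = 0.219). Flt1, a second receptor for vascular endothelial growth factor, had log2 fold changes from -0.14 to 0.03 over its 4 probe sets, the lowest in the dim 1454037_a_at (unadjusted p = 0.0457, adjusted p = 0.36).

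Of the junction genes, Cdh5, the cadherin of endothelial adherens junctions, was at 7.16, 6.78 and 7.34 in Nav1.7 KO and at 7.27, 6.87 and 7.09 in littermates (1433956_at, log2 fold change 0.02, 95% interval -0.24 to 0.28). Pecam1 had a log2 fold change of -0.01 (95% interval -0.25 to 0.22). Cldn5, the claudin of endothelial tight junctions, was at 8.02, 7.88 and 7.14 in Nav1.7 KO and at 7.59, 7.55 and 7.39 in littermates. KO replicates 1 and 2 lay above all littermates and KO replicate 3 below them, and the log2 fold change of 0.17 did not pass (adjusted p = 0.731). Without KO replicate 3, Cldn5 passed as higher (log2 fold change 0.44, limma adjusted p = 0.0366). Leaving out the lowest KO array had to raise this difference, so the pass adds no support.

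Of 31 other endothelial genes 1 fell in Nav1.7 KO DRG and 0 rose, beside 1.48% and 0.79% of all probe sets. Each gene was read by its brightest probe set. In a fit with 1 probe set per gene 787 of 18193 genes passed, and this list did not exceed that share. Cd34, a sialomucin of endothelial cells that fibroblasts and blood stem cells also carry, was at 8.54, 8.53 and 8.60 in KO and at 9.14, 9.11 and 8.87 in littermates, or lower by 1.40-fold (limma adjusted p = 0.00401). Its KO effect differed from that in the Nav1.8 line (log2 difference -0.64, adjusted p = 0.0128), and the difference from the Nav1.9 line did not pass (-0.35, adjusted p = 0.18). The median of the 31 genes was 0.05. At an unadjusted p under 0.05, 8 were called, 4 higher and 4 lower, beside 6.14% and 7.27% of all probe sets. Those named next were chosen after their values were seen. Higher were Sox18, a transcription factor of vessel formation (log2 fold change 0.32, adjusted p = 0.103), and Abcg2, an efflux pump (0.20, adjusted p = 0.22). Lower were S1pr1, a sphingosine phosphate receptor (-0.24, adjusted p = 0.0715), and Adgrf5, an adhesion receptor (-0.28, adjusted p = 0.0639).

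Further vessel-related lists were counted in the same way in Nav1.7 KO DRG, where 0.79% of all probe sets rose and 1.48% fell in limma. Of 20 vascular growth factors and coreceptors 0 passed in limma (3 at an unadjusted p under 0.05), and of 11 tight and adherens junction genes 0 passed (0 unadjusted). Of 12 hypoxia response genes 1 rose, Hk2, a hexokinase, and 0 fell, with a median of 0.05 over the list. At an unadjusted p under 0.05, 4 of the 12 were higher and 1 lower, beside 6.14% and 7.27% of all probe sets. Hk2 was at 7.49, 7.82 and 7.50 in KO and at 6.91, 6.89 and 6.91 in littermates (1.63-fold, limma adjusted p = 0.00321). Nav1.7 littermates had the lowest Hk2 mean of the 6 groups, 6.90, against 7.47 in Nav1.8 and 7.29 in Nav1.9 littermates. Ldha, a lactate dehydrogenase gene named after its value was seen, had a log2 fold change of -0.20 (adjusted p = 0.0678).

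Markers of other cells were measured beside these genes. In limma 0.79% of all probe sets rose and 1.48% fell in Nav1.7 KO DRG. Of 10 macrophage markers 1 rose in Nav1.7 KO DRG, Adgre1 (log2 fold change 0.37, limma adjusted p = 0.0437). At an unadjusted p under 0.05, 7 were higher and 0 lower, beside 6.14% and 7.27% of all probe sets. All 10 had a positive log2 fold change, with a median of 0.37. The array means of the list were 6.92 to 7.27 in KO and 6.52 to 6.86 in littermates. Nav1.7 littermates had the lowest Adgre1 mean of the 6 groups, 6.56, against 7.19 in Nav1.8 and 7.03 in Nav1.9 littermates. The array means of 7 skeletal muscle and fat markers, of which 0 passed, spread over 6.97 to 9.78 in KO arrays and 6.94 to 8.40 in littermate arrays. Fabp7, a lipid carrier, was the 1 of 6 satellite glia markers to pass, as higher (0.36, limma adjusted p = 0.0283). It too was lowest in Nav1.7 littermates, at a mean of 12.97, against 13.50 in Nav1.8 and 13.60 in Nav1.9 littermates. Of 10 sensory neuron markers 1 fell, Avil. Of 4 lymphatic, 10 fibroblast, 3 red blood cell and 5 Schwann cell markers 0 passed. The part of these cells in the Rgs5 and Cd34 results was not tested.

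In Nav1.8 KO DRG 0 members passed in limma, beside 0.00666% of all probe sets. At an unadjusted p under 0.05, 1 was higher and 2 were lower, beside 3.47% and 4.69% of all probe sets. Tek was at 7.31, 7.25 and 7.42 in KO and at 7.17, 7.09 and 7.20 in littermates (log2 fold change 0.17, adjusted p = 0.566). Flt1 1440926_at was at 5.44, 5.21 and 5.02 in KO and at 5.59, 5.56 and 5.50 in littermates (-0.33, adjusted p = 0.558), while the brighter Flt1 1451756_at and 1419300_at had log2 fold changes of -0.11 and -0.14. Acta2 1444105_at, a dim probe set, had -0.26 (adjusted p = 0.503), whereas the bright Acta2 1416454_s_at had 0.25 (adjusted p = 0.731), opposite in sign.

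In Nav1.9 KO DRG 0 members passed, beside 0.242% of all probe sets. At an unadjusted p under 0.05, 2 were higher and 0 lower, beside 5.27% and 5.12% of all probe sets. Pdgfrb 1417148_at was at 7.30, 7.16 and 7.34 in KO and at 7.10, 7.08 and 7.10 in littermates (log2 fold change 0.17, adjusted p = 0.319), and Pdgfrb 1436970_a_at had 0.02. Acta2 1444105_at had a log2 fold change of 0.21 in this line and -0.26 in the Nav1.8 line, and the difference between the lines did not pass (log2 difference -0.47, unadjusted p = 0.000406, adjusted p = 0.251), as for 0 of the 21 members, beside 0.0244% of all probe sets that did. Kcnj8, another potassium channel subunit of pericytes, was the pericyte gene outside the members with the smallest p in Nav1.9 KO DRG (log2 fold change 0.26, adjusted p = 0.319).

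Members were also compared between littermates of different lines, where each littermate group enters 2 comparisons. In Nav1.7 littermates against Nav1.8 littermates 5 members were lower and 0 higher in limma, beside 9.14% and 9.52% of all probe sets. Against Nav1.9 littermates, 4 were lower and 0 higher in Nav1.7 littermates, beside 4.78% and 4.63%. In Nav1.8 littermates against Nav1.9 littermates 1 was higher and 1 lower, beside 4.82% and 6.01%. Line, breeding, dissection and hybridisation cannot be told apart in these comparisons. All 3 Nav1.7 littermates were of the high Xist class and all 6 other littermates of the low class, so Xist class and line go together here. With the Xist class as a term, which then rests on the KO groups that hold both classes, the 5 and 4 lower calls became 3 and 2.

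Cldn5 showed the clearest of these differences. It was at 7.59, 7.55 and 7.39 in Nav1.7 littermates, against 8.52, 8.39 and 8.51 in Nav1.8 littermates and 8.52, 8.40 and 8.43 in Nav1.9 littermates. The log2 differences were -0.96 (95% interval -1.31 to -0.62, adjusted p = 0.000781) and -0.94 (adjusted p = 0.00172). Over KO and littermates together, the 6 Nav1.7 arrays spanned 7.14 to 8.02 and the 12 arrays of the other lines 8.12 to 8.63, without overlap. With the Xist class as a term the differences were -0.66 and -0.64 and did not pass (adjusted p = 0.0964 and 0.135).

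The other endothelial members that passed were also lower in Nav1.7 littermates, by smaller amounts. Against Nav1.8 littermates these were Pecam1 (-0.35, adjusted p = 0.0356), Cdh5 1433956_at (-0.40, adjusted p = 0.0305) and Kdr (-0.21, adjusted p = 0.0352). Against Nav1.9 littermates Tek passed (-0.25, adjusted p = 0.0414). Averaged over the 6 endothelial genes, the arrays of Nav1.7 KO lay at 6.97 to 7.21 and those of Nav1.7 littermates at 6.90 to 7.05, against 7.21 to 7.41 in the other 12 arrays. Taking out 1 of the 6 littermate arrays at a time, the Pecam1 and Cdh5 calls were lost without 4 of them and the Kdr and Tek calls without 5 (adjusted p up to 0.167), while both Cldn5 calls held without any 1 array.

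**Figure D3:**
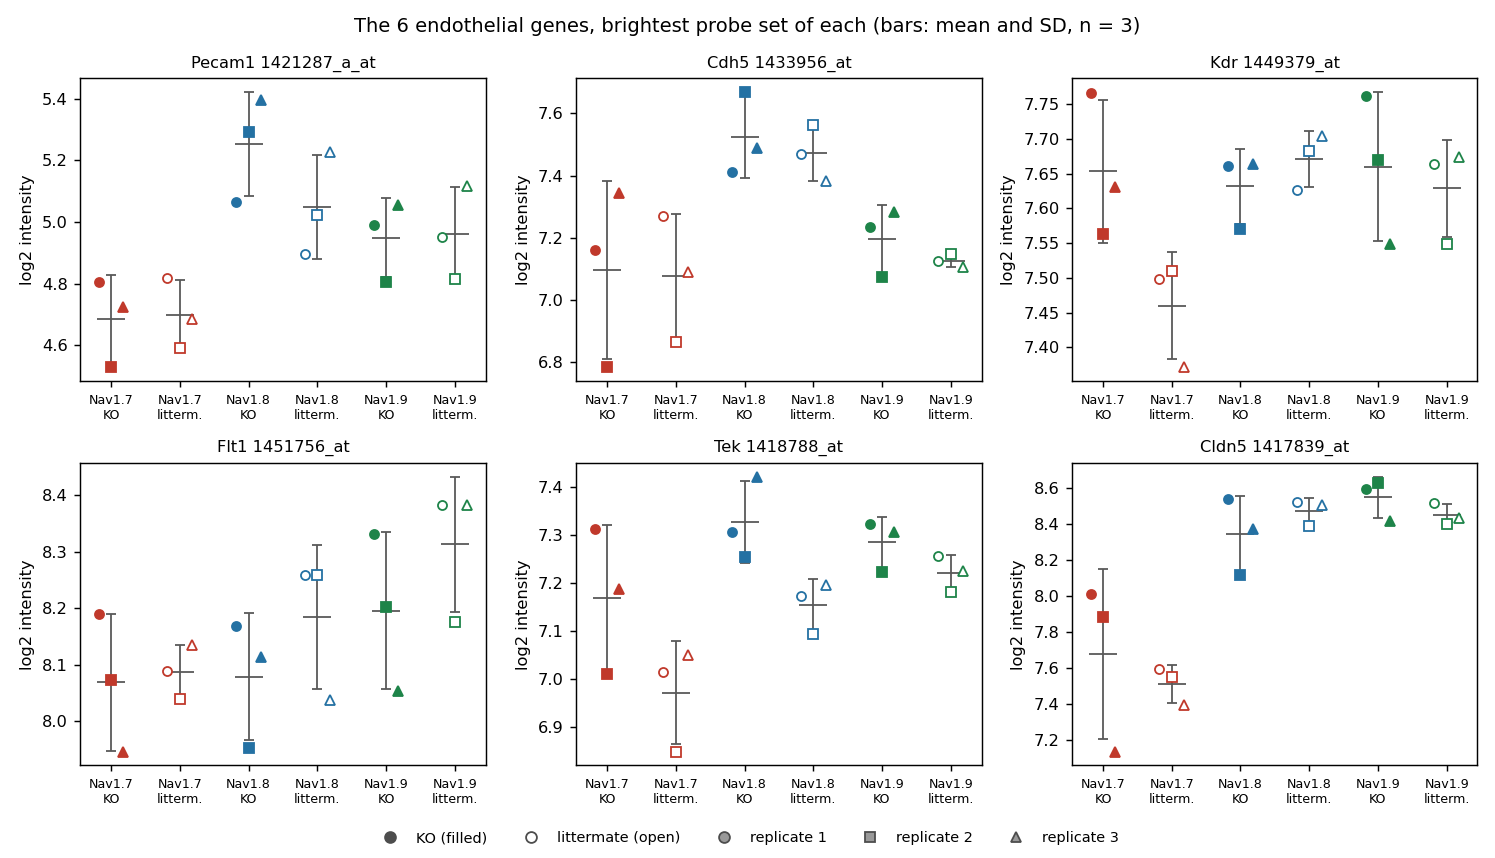
Log2 intensity of the brightest probe set of each endothelial gene in the 18 arrays, by group, with the group mean and SD (n = 3) as bars, filled for KO and open for littermates. Cldn5 lies at 7.14 to 8.02 in the Nav1.7 arrays and at 8.12 to 8.63 in all others, while Flt1 overlaps between lines.

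Of the mural members, Pdgfrb 1417148_at was lower in Nav1.7 littermates than in Nav1.8 littermates (-0.32, adjusted p = 0.0021) and higher in Nav1.8 littermates than in Nav1.9 littermates (0.30, adjusted p = 0.00518), and held both calls without any 1 array. The brighter Pdgfrb 1436970_a_at passed in neither (-0.14, adjusted p = 0.209, and 0.05, adjusted p = 0.762). Rgs5 1417466_at was at 11.20, 11.18 and 11.76 in Nav1.7 littermates, against 11.96, 11.98 and 12 in Nav1.8 littermates and 12.25, 12.13 and 12.31 in Nav1.9 littermates. It passed against the Nav1.9 line (-0.85, adjusted p = 0.0179). Rgs5 1420942_s_at split the lines another way: it was at 7.32, 7.50 and 8.14 in Nav1.8 littermates and at 9.11, 9.08 and 9.12 in Nav1.9 littermates (-1.45, adjusted p = 0.00251). Without any 1 array this last call held, whereas that of 1417466_at was lost without any of 4 arrays, Nav1.7 littermate replicates 1 and 2 and Nav1.9 littermate replicates 1 and 3. Against Nav1.9 littermates Rgs5 1420942_s_at was also lower in the Nav1.7 line (-0.98, adjusted p = 0.028), a call lost without any of 5 arrays. Rgs5 1420941_at had a log2 difference of 0.62 between Nav1.7 and Nav1.8 littermates (adjusted p = 0.0644), so the sign of the line difference was not the same in all Rgs5 probe sets.

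The agreement between the 4 Rgs5 probe sets was taken within lines, since the Nav1.7 arrays lay apart from the rest. Over the 6 Nav1.7 arrays their pairwise correlations ran from 0.856 to 0.991, and over the 12 other arrays from 0.142 to 0.894. These are descriptions over arrays that share their groups. Genes with a pattern like that of Rgs5 were looked for by correlation over the 18 arrays, and the genes on chromosome 1 and of the clock named next were chosen after their values were seen. For 1417466_at, 7 of 174 genes within 10 Mb of Rgs5 on chromosome 1 had a correlation of at least 0.85 in size (4.02%), against 57 of 18183 genes in all (0.313%). The 7 were Rgs4, Ppox, Nit1, Igsf9, Tagln2, Ackr1 and Ifi202b. Over the 12 arrays outside the Nav1.7 line the same 7 genes had correlations with it from -0.62 (Ifi202b) to 0.24 (Rgs4), so the likeness rests on the Nav1.7 arrays and their distance from the rest. For 1420940_x_at 2 of the 174 (1.15%) reached 0.85, Rgs4 and Ppox, against 8 of all genes (0.044%). For 1420942_s_at there were 2, Olfml2b and Uhmk1, against 15 of all genes (0.0825%), and for 1420941_at no gene of the 18183 reached it.

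Rgs4, a related regulator of G-protein signalling in neurons, is the nearest gene to Rgs5 that has a probe set. Rgs4 1416286_at was at 12.91, 12.97 and 13.19 in Nav1.7 KO DRG and at 13.35, 13.33 and 13.39 in littermates (log2 fold change -0.33, limma adjusted p = 0.00369), and Rgs4 1416287_at fell by 0.44 (adjusted p = 0.00611). As with Rgs5, KO replicate 3 was the highest of the KO arrays. Rgs4 1448285_at was at 8.89, 9.10 and 9.91 in Nav1.8 littermates and at 11.20, 10.97 and 11.23 in Nav1.9 littermates, the same 2 groups that Rgs5 1420942_s_at set apart. Over the 12 arrays of those lines the correlation of this pair was 0.992, the highest of 12 pairs of an Rgs5 and an Rgs4 probe set, which ran from -0.61 to 0.992. Over the 6 Nav1.7 arrays the 12 pairs ran from 0.888 to 0.977.

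Ppox, an enzyme of haem synthesis, was at 6.91, 7.01 and 7.84 in Nav1.7 KO DRG and at 7.58, 7.55 and 7.93 in littermates, and at 7.80 to 8.18 in the other lines. Its log2 fold change of -0.43 did not pass (adjusted p = 0.257), and its correlation with Rgs5 1417466_at was 0.978 over the 6 Nav1.7 arrays and -0.48 over the 12 others. Tagln2, an actin-binding protein, ran the opposite way, at 11.96, 12.04 and 11.87 in KO and at 11.49, 11.69 and 11.21 in littermates (0.49, adjusted p = 0.0356), and at 10.40 to 10.87 in the other lines. Ackr1, a chemokine scavenger of venules, was at 10.82, 10.89 and 11.22 in Nav1.7 KO and at 10.84, 10.84 and 11.38 in littermates, with replicate 3 the highest in both and a KO log2 fold change of -0.04. Ifi202b, an interferon-inducible gene, was at 5.20, 5.24 and 4.58 in KO and at 5.14, 4.99 and 4.50 in littermates, with replicate 3 the lowest in both. Of the 174 neighbours 3 passed in Nav1.7 KO DRG (Rgs4, Slamf9 and Tagln2), or 1.72%, beside 2.27% of all probe sets. These shares are not alike, since each neighbour was read by its brightest probe set. In a fit with 1 probe set per gene, 787 of 18193 genes passed.

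**Figure D4:**
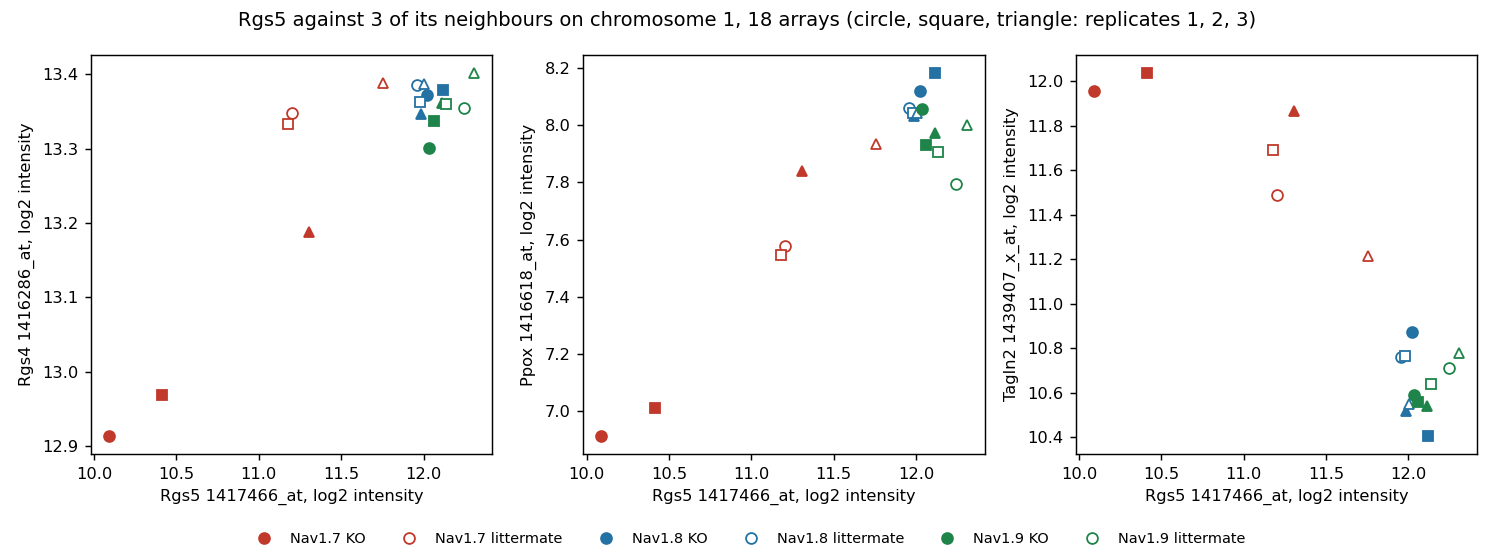
Rgs5 1417466_at on the horizontal axis against Rgs4, Ppox and Tagln2, which lie within 10 Mb of it on chromosome 1, in 18 arrays (log2 intensities, filled for KO and open for littermates). The 12 arrays of the Nav1.8 and Nav1.9 lines form 1 cloud near 12 on the Rgs5 axis, and the 6 Nav1.7 arrays extend from it down to 10.09.

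The circadian clock genes were set beside Cldn5 after its values were seen. Of 16 clock genes 12 had a negative correlation with it over 18 arrays and 4 a positive one, from -0.94 (Per2) to 0.93 (Arntl), with Clock, Nfil3 and Npas2 at 0.15 to 0.28. In order of the lowest correlation over 18 arrays, Per2 was first of 18183 genes, and Ciart, Nr1d2, Tef, Per3 and Dbp were at places 2, 3, 6, 7 and 8, and these genes encode repressors or outputs of the clock. Per2 was at 7.61, 7.58 and 8.51 in Nav1.7 KO DRG and at 7.87, 7.93 and 8.42 in littermates, with KO replicate 3 the highest array and also the lowest for Cldn5. Its difference between Nav1.7 and Nav1.8 littermates was 0.94 (adjusted p = 0.00484), and that of Dbp was 1.46 (adjusted p = 0.000146). Arntl, the activator that drives them, was lower in Nav1.7 littermates (log2 difference -1.02, adjusted p = 1.07e-05). In Nav1.7 KO DRG against littermates 2 of the 16 clock genes passed, both as lower, beside 1.48% of all probe sets. In a fit with 1 probe set per gene 787 of 18193 genes passed in either direction. The 2 clock genes were Clock (log2 fold change -0.23, limma adjusted p = 0.0237) and Bhlhe41 (-0.37, adjusted p = 0.0425). Because the lines form separate clusters, correlations were also taken within them. Over the 6 Nav1.7 arrays Cldn5 had a correlation of -0.95 with Per2, -0.20 with Dbp and 0.45 with Arntl, and over the 12 others -0.58, -0.47 and 0.72. The hour at which tissue was taken is not given, and its part was not tested.

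**Figure D5:**
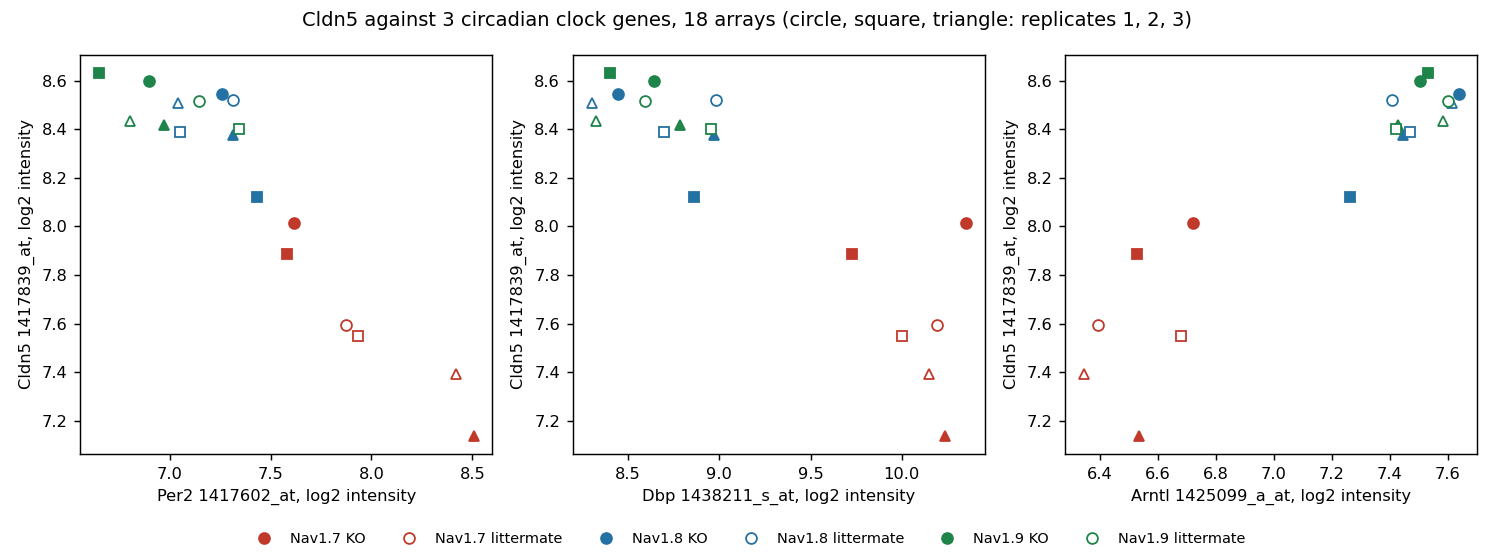
Cldn5 on the vertical axis against the clock genes Per2, Dbp and Arntl in 18 arrays (log2 intensities, filled for KO and open for littermates). The Nav1.7 arrays lie apart, with Cldn5 at 7.14 to 8.02, Dbp at 9.73 to 10.35 and Arntl at 6.34 to 6.72.

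Likeness between the members was taken with and without the differences between groups. Over the 18 arrays as measured, the endothelial pairs had a median correlation of 0.50 (14 of 15 positive), the mural pairs 0.35 (6 of 6) and the mixed pairs 0.43 (23 of 24). After each group's mean was taken off, the 15 pairs of endothelial genes had a median correlation of 0.33 over 18 arrays, from -0.59 to 0.62, the 6 mural pairs 0.18, from 0.07 to 0.78, and the 24 mixed pairs 0.04. The extremes were mixed pairs, Cdh5 with Pdgfrb at 0.87 and Cldn5 with Rgs5 at -0.865. In Nav1.7 KO replicate 3, the array that set itself apart for Rgs5, Cldn5 was the lowest and Rgs5 1417466_at the highest of the 3 KO arrays. The genes most like the mean of the 6 endothelial members were led by Podxl, a sialomucin of endothelium (0.859), followed by Rabep1 (0.839) and Tmem184c (0.833). Those most like the mural mean were led by Pla2g4a, a phospholipase (0.931), followed by Rpap2 (0.911) and Vegfc, a lymphatic growth factor (0.892), in the same 18 arrays. Both sets are the top of 18183 genes after group means were taken off. As measured, Pla2g4a, Rpap2 and Vegfc were at 0.51, -0.06 and 0.50, and Podxl, Rabep1 and Tmem184c at 0.75, 0.76 and 0.65.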

How the data were processed

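DRG RNA from 18 samples was hybridised to 1-colour Affymetrix mouse arrays, 1 array each. The deposited log2 intensities, 1 per probe set, had been made by the authors with Affymetrix Expression Console; the summary method is not given in the sources used here. All values were used as deposited. After 64 control probe sets were left out, 45037 remained, of which 34945 were annotated to 1 gene, 932 to several and 9160 were not listed in the annotation.

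All 6 groups entered 1 linear model in limma 3.58.1 (R 4.3.3; 12 residual and 4.02 prior degrees of freedom), with contrasts of KO against littermates, of KO effects between lines and of littermates between lines. P-values were two-sided and adjusted by Benjamini-Hochberg over all probe sets, with a threshold of 0.05, and the fit was tested on simulated data. Joint use of p under 0.01 and fold over 1.5 is a reading of the study's thresholds. Arrays give no counts, so their number limits the precision.

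Groups came from the sample labels; source names that call all samples littermate control were not used. Genes outside the members were named if they passed in a KO contrast (at most 4 per list), as the 1 gene with the smallest p otherwise, or as 1 of the 8 most alike in pattern, with exceptions named in the text. Lists used the brightest probe set of each gene. Members and lists were chosen with earlier results of these data known. Alternatives covered normalization, dim and cross-hybridising probe sets, the model, the Xist class, the replicate block and leaving out each array.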

Additional observations from a re-analysis of the deposited data

How the results depend on the processing

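The count of members lower in Nav1.7 KO DRG was 1, and became 0 with 1 probe set per gene, each line fitted alone, a trend and robust prior, the Xist class as a term, 1 Xist class in each line or an analysis of variance on each line, 3 with array weights and 4 at unadjusted p under 0.01 and fold over 1.5. Leaving out 1 array gave 0 to 4, with 4 without KO replicate 3. The count higher, 0, became 0 to 1 (Cldn5, -0.00195 to 0.44 over these 6 fits, the lowest without KO replicate 1). The log2 fold change of Rgs5, -0.78 in its brightest probe set, was -0.99 as the mean of 4. Same-numbered KO and littermate arrays correlated at -0.12 to 0.27, 3 of 9 over 0.1, and 3 of 9 KO arrays correlated best with their own number. In the Nav1.7 line the same-numbered values were 0.01, 0.18 and 0.24. Such low correlations do not decide whether replicate numbers pair the samples. With the replicate block 4 members were lower in Nav1.7 KO DRG, and Rgs5 1417466_at passed (limma adjusted p = 0.00419, against 0.0709 without the block).

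In Nav1.7 against Nav1.8 littermates the count higher, 0, was 1 with dim probe sets left out or with array weights, and the count lower, 5, was 3 with the Xist term and 2 to 5 without 1 array. Against Nav1.9 littermates the count lower, 4, was 2 with the Xist term and 1 to 4 without 1 array. In Nav1.8 against Nav1.9 littermates the count higher, 1, was 0 with 1 probe set per gene, 2 with array weights or the Xist term, and 1 to 2 without 1 array; the count lower, 1, was 0 with 1 probe set per gene or without _x_at and _s_at probe sets, 2 with quantile normalization or median centring, and 1 to 2 without 1 array. The counts of differing KO effects, 0, were 0 to 4 between Nav1.7 and Nav1.8 and 0 to 2 between Nav1.7 and Nav1.9 without 1 array. The cause of these shifts was not tested.

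Over all probe sets, the 1021 calls in Nav1.7 KO were 285 with the line fitted alone, 551 in 1 Xist class, 7 by analysis of variance and 668 without littermate replicate 1 or 2. The 3 calls in Nav1.8 KO were 1 with the line alone, 9 in 1 Xist class and 2 to 11 without 1 array. The 109 calls in Nav1.9 KO were 5 with the line alone, 226 with the trend, 0 by analysis of variance, 71 with the replicate block and 48 to 153 without 1 array. Nav1.9 arrays were all of 1 Xist class, so that alternative added no fit there. Signal over background could not be judged, since no detection calls were used.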

Other observations

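Between littermates of the lines, 31 other endothelial genes were counted in the same way. They were read by the brightest probe set of each gene, while the shares beside them are over all probe sets, dim ones included. In Nav1.7 littermates against Nav1.8 littermates 2 were higher and 6 lower in limma (median log2 difference -0.15), beside 9.52% and 9.14% of all probe sets, and against Nav1.9 littermates 0 were higher and 8 lower (median -0.20), beside 4.63% and 4.78%. In Nav1.8 littermates against Nav1.9 littermates 0 were higher and 3 lower (median -0.11), beside 4.82% and 6.01%. In Nav1.8 KO DRG the vascular growth factor list held Angpt2, the angiopoietin that opposes Tek signalling, as its gene with the smallest p, with a log2 fold change of 0.43 that did not pass (adjusted p = 0.527).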
